A study of Mus musculus with 35 samples.

Results

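The 44 collagen genes of the mouse were described across 6 tissues. They were every protein-coding gene whose symbol reads Col, a number, the letter a and a number, such as Col1a1. All 44 were among the 55356 features of the count table, 27 of them as a locus of the long-read (Iso-seq) annotation and 17 as an ENSEMBL gene, and all 44 passed the filter on low counts that left 29911 features. The libraries came from brain, cerebellum, heart and colon of female and male adult C57BL/6J mice, from ovary and from testis, with 3 libraries in each group of tissue and sex except male heart, which had 2. No genotype or treatment differed between the 29 libraries, the exact age was not given, and nothing in the sources used here says which libraries came from the same animal, so the spread between libraries may be partly technical.

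Collagens are extracellular or membrane proteins whose chains wind around each other in a triple helix, and each turn of the helix needs a glycine at the head of a Gly-X-Y triplet. Fibrillar chains (types I, II, III, V, XI, XXIV and XXVII) build the cross-striated fibres of connective tissue, type IV chains form the sheet of the basement membrane, type VI chains form beaded filaments around cells, and FACIT chains sit on the surface of fibrils. Fibroblasts and smooth muscle cells make most of the fibrillar collagen of solid organs, whereas in the brain collagen belongs mainly to vessels and meninges. In bulk tissue, fewer cells of a type and less RNA per cell cannot be told apart.

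The total count per library lay between 11742417 and 36194255, with a median of 24403774. Of 24 genes that define the tissues, 21 were higher in every library of their tissue than in every library of the others. The exceptions were Gfap and Snap25, which did not separate brain from cerebellum, and Sox9 of the testis. Female heart replicate 3 stood apart from the other hearts. Its level of the adipocyte hormone Adipoq was 695 FPKM (counts per 1000000 total counts and per kilobase of annotated exon) against at most 1.74 in the other hearts, its summed level of 7 fibroblast markers was 1128 against 445 to 642, the atrial gene Nppa was 2770 against 41.0 to 90.1 and the smooth muscle gene Myh11 9.91 against 0.678 to 2.42. Values that moved by over 1.5 times, or calls that were lost, when 1 library was left out are given both ways for the members whose fold changes are printed. The scaling factors of the fit (TMM) were 0.613 to 0.713 in the other hearts, 1.04 in this one and 1.25 to 1.41 in ovary. Scaling by total counts alone moved the median log2 fold change over all features from -0.09 to -0.62 for heart against colon, from -0.15 to 0.38 for ovary against testis, from 0 to 0.52 for ovary against heart and colon, and from -0.11 to -0.30 for heart and colon against brain and cerebellum.

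The repeat of the helix is written in the exons of these genes. A coding exon of each of 2 genes, as annotated on GRCm38, is shown because Col3a1 led in colon, ovary and heart and Col20a1 in testis. The glycine codons are in capitals.
Col3a1 coding exon, chr1:45325360-45325413 (+): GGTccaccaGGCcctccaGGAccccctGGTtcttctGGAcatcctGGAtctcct
Col20a1 coding exon, chr2:181013236-181013289 (+): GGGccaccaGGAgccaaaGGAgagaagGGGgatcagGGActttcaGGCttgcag
Both exons are 54 bases long and start with a glycine codon. The Col3a1 exon was picked for that length, as the first such exon in frame inside its longest glycine run. The Col20a1 exon was the first in frame inside its longest run, whatever its length. Over all members, 469 of 1917 internal coding exons (24.5%) had exactly 54 bases, against 0.444% of 156938 internal coding exons of the other protein-coding genes. The share was 48.6% in fibrillar chains, 26.3% in FACIT chains and 4.23% in basement membrane chains. The longest unbroken run of Gly-X-Y triplets was 344 in Col3a1 and 339 in Col2a1, against 113 in Col22a1 and 32 in Col20a1.

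Several members that assemble together lie side by side. Col4a1 and Col4a2, the chains of the ubiquitous basement membrane network, start head to head on chromosome 8 with 22 bases of overlap between the annotated genes. Their RefSeq promoter windows (300 bases around the annotated start, GRCm38) share 78 bases, in capitals below, which read as reverse complements of each other.
Col4a1 promoter, chr8:11312777-11313076 (-): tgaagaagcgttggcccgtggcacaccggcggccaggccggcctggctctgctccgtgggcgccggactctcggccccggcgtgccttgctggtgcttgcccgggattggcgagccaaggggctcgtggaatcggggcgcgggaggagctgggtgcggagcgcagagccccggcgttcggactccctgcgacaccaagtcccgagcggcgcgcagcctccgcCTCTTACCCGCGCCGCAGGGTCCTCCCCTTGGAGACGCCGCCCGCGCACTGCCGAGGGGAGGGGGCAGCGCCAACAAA
Col4a2 promoter, chr8:11312555-11312854 (+): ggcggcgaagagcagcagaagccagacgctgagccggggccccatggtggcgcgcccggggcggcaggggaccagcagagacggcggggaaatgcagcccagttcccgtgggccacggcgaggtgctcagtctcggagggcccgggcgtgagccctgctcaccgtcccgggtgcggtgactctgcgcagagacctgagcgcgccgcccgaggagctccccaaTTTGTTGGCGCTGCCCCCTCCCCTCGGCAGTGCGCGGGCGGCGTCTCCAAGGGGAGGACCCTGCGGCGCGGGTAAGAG
Counting both strands, each window holds the CCAAT box and the GC box, GGGCGG. Col4a4 and Col4a3, chains of the second type IV network, start 71 bases apart on chromosome 1, and the capitals in the Col4a4 window mark the 179 bases that lie inside Col4a3.
Col4a4 promoter, chr1:82586800-82587099 (-): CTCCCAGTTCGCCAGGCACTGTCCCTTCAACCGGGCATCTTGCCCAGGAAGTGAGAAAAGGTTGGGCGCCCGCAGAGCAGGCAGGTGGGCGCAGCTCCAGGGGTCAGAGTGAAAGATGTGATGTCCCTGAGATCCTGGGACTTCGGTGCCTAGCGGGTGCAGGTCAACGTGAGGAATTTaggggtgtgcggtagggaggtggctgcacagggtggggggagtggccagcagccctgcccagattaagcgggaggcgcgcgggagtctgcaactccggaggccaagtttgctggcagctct
This window holds none of the motifs searched on both strands, which were these boxes and the TATA box (TATAAA). Promoter windows were found for 38 of the 44 members. The GC box was present in 60.5% of them and in 35.7% of all 32851 windows, the CCAAT box in 34.2% and 37.4%, and the TATA box in 13.2% and 13.6%. Col4a6 and Col4a5 also start head to head, 1308 bases apart on chromosome X, and Col6a6, Col6a5 and Col6a4 follow each other on the same strand of chromosome 9.

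The features counted were not always whole genes. The 27 Iso-seq loci held 145 transcript models, and 11 of them held 1 model. The models covered a median of 51.5% of the bases of the ENSEMBL exons. The longest model reached at least 90% of the length of the longest ENSEMBL transcript in 10 loci and less than 50% in 9. Several loci held only the 3′ part of the gene, such as Col12a1, Col4a5 and Col4a6. The Col20a1 locus (chr2:181013433-181017540, 8 exons, 733 bases) spanned 84.5% to 97.4% of the gene from its 5′ end and began just after the exon printed above. The Col22a1 locus (chr15:71868881-71954420) spanned 33.5% to 69.4% of its gene and ended 73086 bases before the annotated 3′ end. Levels refer to these counted bases. The strand setting of the counting was not given, so reads of 7 members cannot be told from an antisense gene where both overlap, namely Col9a3 (with Tcfl5), Col6a4 (Gm47575), Col4a3 (C430014B12Rik), Col5a1 (Gm13372), Col6a6 (Gm38314), Col4a2 (Gm15419) and Col15a1 (Gm12426).

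Collagen took the largest share of counts in ovary and the smallest in brain. The 44 genes held 0.587% ± 0.122 (SD, n = 3) of all counts in ovary, 0.414% ± 0.0736 (n = 6) in colon, 0.199% ± 0.114 (n = 5) in heart, 0.171% ± 0.0298 (n = 3) in testis, 0.101% ± 0.0274 (n = 6) in cerebellum and 0.0585% ± 0.0233 (n = 6) in brain. The share in heart minus that in colon was -0.215 percentage points (two-sided exact permutation test, p = 0.0108, adjusted over 3 comparisons 0.0195). Brain minus cerebellum was -0.0427 points (exact permutation test, p = 0.0130, adjusted 0.0195). All 3 ovaries, at 0.447%, 0.639% and 0.674%, lay above all 3 testes, at 0.164%, 0.146% and 0.204%, but with 3 against 3 the exact test cannot go below p = 0.1. Female heart replicate 3, at 0.394%, lay above the other hearts (0.107% to 0.193%) and within the range of the colons (0.338% to 0.536%).

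**Figure D1:**
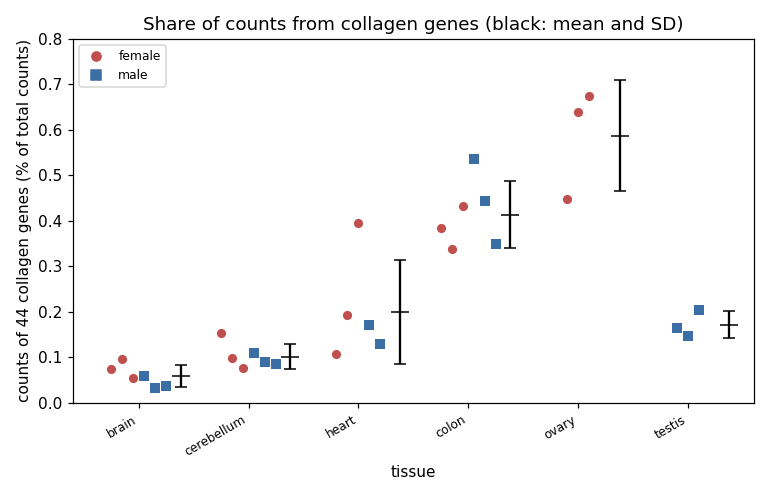
Counts of the 44 collagen genes as a percentage of the total counts of each library (vertical axis) by tissue (horizontal axis). Points are libraries (red circles female, blue squares male) and black marks are the tissue mean and SD. Every ovary lies above 0.44% and every brain below 0.1%, and 1 heart reaches 0.394%.

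The member with the highest mean level was a fibrillar chain in 5 of the 6 tissues and a FACIT chain in testis. Col3a1, the chain of type III fibrils of distensible organs, had the highest mean level in colon (286 ± 39.4 FPKM, SD, n = 6), ovary (251 ± 82.3, n = 3) and heart (121 ± 93.2, n = 5). In the hearts Col3a1 was 66.6, 109, 285, 80.1 and 66.2 FPKM, the third value being female replicate 3, and without that library the maximum was 109. Col1a1 and Col1a2, the chains of type I fibrils, led in brain (23.2 ± 16.4 and 21.3 ± 11.0 FPKM, n = 6) and in cerebellum (60.3 ± 32.7 and 44.4 ± 16.2 FPKM, n = 6). The brains and hearts overlapped in Col1a1, which ran from 8.29 to 52.3 FPKM (median 21.4) in brain, from 37.1 to 122.9 (median 47.6) in cerebellum and from 16.5 to 71.9 in heart. Col1a2 was 152, 235 and 224 FPKM in the ovaries, 46.8, 36.4 and 62.3 in the testes and 86.4 to 151 in the colons. In testis the leading members were Col20a1 (69.8 ± 2.09 FPKM, n = 3) and Col22a1 (59.4 ± 2.84), both FACIT chains, ahead of Col3a1 (56.1 ± 16.5), whose level did not separate from theirs beyond its spread. Col20a1 and Col22a1 were counted on only 733 and 1882 bases, 13.8% and 20.2% of their ENSEMBL exon bases. In counts per testis Col3a1 (7225 to 12543) lay above Col22a1 (3246 to 3544) and Col20a1 (1506 to 1552), so this order depends on the counted bases. The third member in ovary was Col6a1, a chain of type VI filaments, at 154, 160 and 157 FPKM, above the colons (46.9 to 79.1) and all other libraries.

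Ovary had the most members at their highest mean FPKM, 19 of 44, followed by testis with 9, cerebellum with 7 and colon with 5. These FPKM use total counts alone. With the TMM factors given above, levels would be lower in ovary and higher in most hearts, and no ranking was made with them. Col4a5, among the 19, was -0.06 in ovary against female heart and colon in the fit without female heart replicate 3 (edgeR, adjusted p = 0.913). Brain and heart had 2 each (Col19a1 and Col25a1 in brain, Col15a1 and Col5a3 in heart). In FPKM by total counts, both heart members rested on female heart replicate 3. Without it Col15a1 was 12.7 on average in heart against 13.8 in ovary, and Col5a3 1.56 against 1.87 in colon. The TMM-scaled fit (edgeR) without that library did not keep this order. For heart against colon it gave log2 fold changes of 1.275 for Col15a1 (adjusted p = 0.00069) and 0.42 for Col5a3 (0.312). For ovary against female heart and colon it gave -0.21 (0.723) and -1.40 (0.00685). At 1 FPKM or more stood 30 members in ovary, 27 in testis, 24 in colon and cerebellum and 21 in brain and heart. Of the summed FPKM of all members, fibrillar chains made up a mean of 64.5% in colon, 57.5% in heart, 56.9% in cerebellum, 53.8% in ovary, 44.9% in brain and 35.9% in testis. FACIT chains made up 36.6% in testis, where their libraries (30.7% to 41.4%) overlapped with those of fibrillar chains (31.5% to 41.0%), and 2.79% in ovary. Col20a1 and Col22a1, counted on short parts of their genes, held 16.2% and 13.8% of the summed testis means. Tissue specificity was summarised by tau, which runs from 0 for even levels to 1 for a single tissue. Over the 37 members whose highest tissue mean was at least 1 FPKM the median tau was 0.748 (quartiles 0.676 and 0.843), beside 0.680 (0.488 and 0.866) over 16552 protein-coding genes. By class the median was 0.842 in 6 beaded filament chains, 0.798 in 8 FACIT chains and 0.712 in 10 fibrillar and in 6 basement membrane chains. The other classes had 1 or 2 members each, at 0.899 in anchoring fibril and other chains (n = 1), 0.798 in transmembrane chains, 0.553 in multiplexins and 0.542 in short chain networks (n = 2 each).

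**Figure D2:**
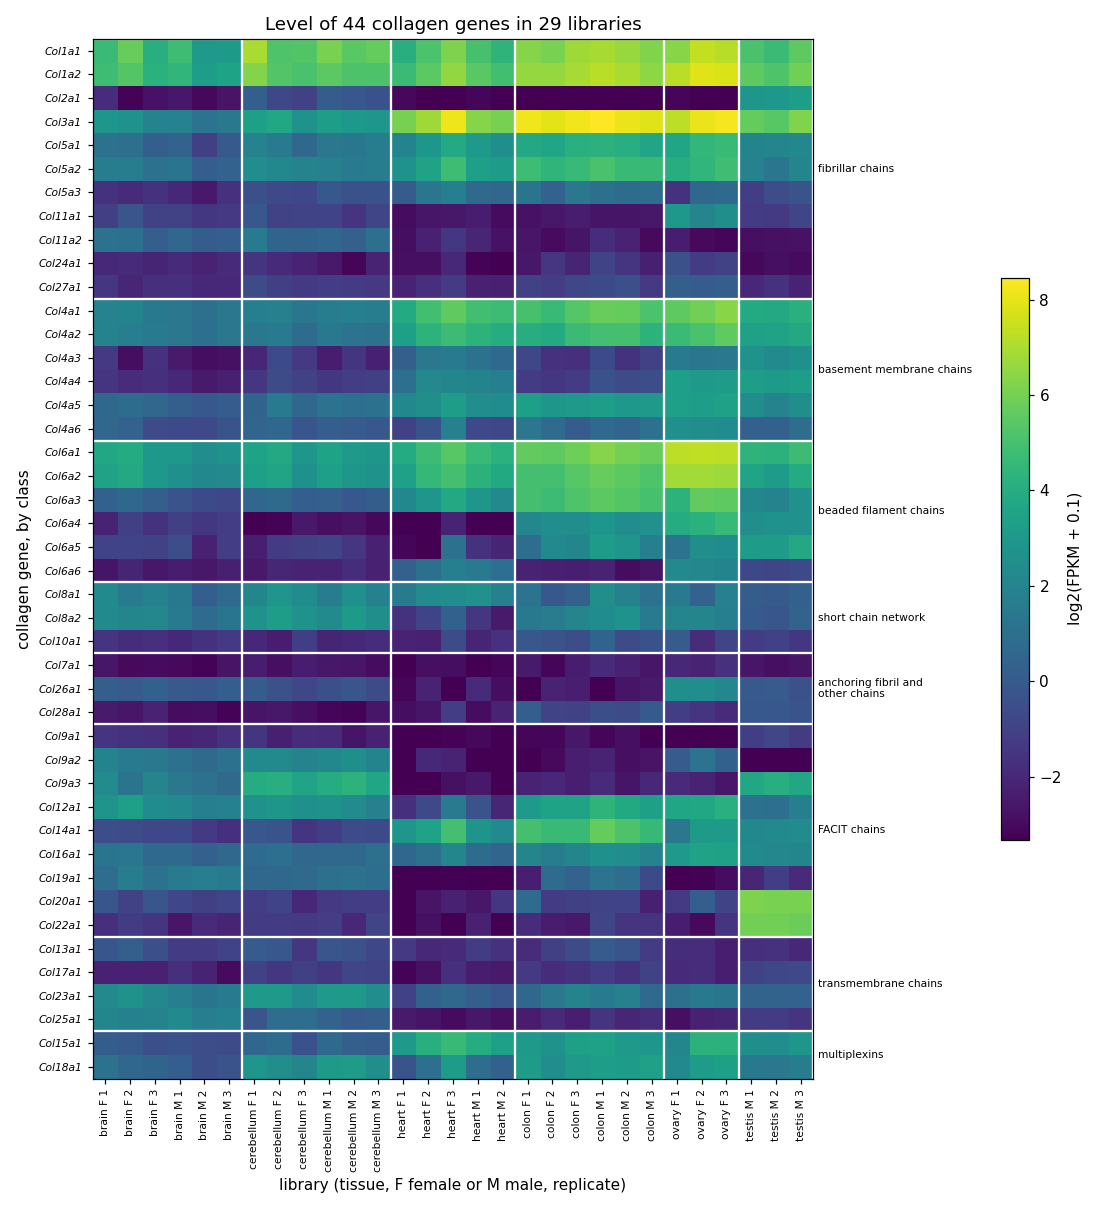
Level of each of the 44 collagen genes (rows, by class) in each of the 29 libraries (columns, by tissue, F female, M male), as log2(FPKM + 0.1) on the colour scale. Col20a1 and Col22a1 are high in the 3 testes alone, Col3a1 is high outside the nervous system, the Col9a2 row is highest in brain and cerebellum, and the Col9a3 row in cerebellum and testis, with lower levels in brain.

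Heart and colon were compared with brain and cerebellum to set stroma-rich organs against nervous tissue. A gene was called different when its adjusted p (edgeR quasi-likelihood test, Benjamini-Hochberg over all features tested) was under 0.05. Of the 44 members 23 were higher and 15 lower in heart and colon, 86.4% in all, beside 64.5% of all features (26.3% higher, 38.2% lower). The median log2 fold change was 0.82 over members and -0.11 over all features. All 6 basement membrane chains, 5 of 6 beaded filament chains and both multiplexins were higher. Without female heart replicate 3 the numbers were 21 and 14 and the median was 0.45, and 5 of 6 basement membrane and 4 of 6 beaded filament chains were higher, Col4a6 and Col6a5 losing their call. Of the 9 FACIT chains 2 were higher (Col14a1 and Col16a1) and 6 lower, and of the 4 transmembrane chains 3 were lower and none higher. Without female heart replicate 3, 2 transmembrane chains were lower, Col13a1 losing its call (edgeR, adjusted p = 0.0877). In 11 members (25%) every heart and colon library lay above every brain and cerebellum library, beside 4.26% of all features, and in 6 (13.6%) every one lay below, beside 17.8%.

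Col3a1 was 2.14 to 7.14 FPKM (median 3.68) in brain and 6.51 to 13.2 (median 8.70) in cerebellum, against 239.6 to 352 (median 288) in colon and the hearts given above. Its log2 fold change was 5.03 ± 0.19 (SE, edgeR, adjusted p = 2.5e-18). Col4a1 was 14.8, 29.2, 48.2, 29.4 and 26.6 FPKM in the hearts and 25.6 to 52.8 (median 37.8) in colon, against 1.94 to 3.83 (median 2.54) in brain and 2.39 to 3.37 (median 3.14) in cerebellum, a log2 fold change of 3.73 ± 0.14. Its partner Col4a2 was 9.92, 19.4, 26.5, 19.7 and 15.4 FPKM in the hearts, 14.7 to 31.7 in colon and 1.68 to 3.72 in brain and cerebellum (3.22 ± 0.14). Col6a3, which completes the type VI filament, was 4.49, 7.10, 13.8, 7.32 and 4.52 FPKM in the hearts and 26.8 to 45.5 in colon but at most 1.57 in any brain or cerebellum (4.19 ± 0.17). For all 4 genes every heart and colon library lay above every brain and cerebellum library. Col1a1 differed much less, by 0.78 ± 0.25 (adjusted p = 0.00699), and its libraries overlapped.

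The 4 members higher in nervous tissue with the smallest adjusted p among those without overlap were Col9a3, Col25a1, Col9a2 and Col11a2. Col9a3 and Col9a2, chains of the FACIT type IX, were 11.7 to 19.2 and 3.75 to 5.78 FPKM in cerebellum, 1.58 to 5.08 and 1.59 to 3.88 in brain and at most 0.168 and 0.148 in any heart or colon. Col25a1, a transmembrane collagen of neurons, was 3.16 to 4.66 FPKM (median 3.67) in brain, 0.757 to 1.73 in cerebellum and 0.0288 to 0.240 in heart and colon, and its log2 fold change was -4.31 ± 0.23 (adjusted p = 4.85e-15). Col11a2, a minor fibrillar chain of cartilage, was 1.01 to 2.70 FPKM in brain and cerebellum and at most 0.279 in heart and colon (-3.83 ± 0.29). Col19a1, a FACIT chain, was 1.77 to 3.17 FPKM in brain and 1.48 to 2.07 in cerebellum, but colon reached 2.14 and the groups overlapped.

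Some weaker calls in this comparison rested on few libraries. Col6a5 (2.18 ± 0.48) was 2.07 FPKM in female heart replicate 3 and at most 0.222 in the other hearts, and without that library its log2 fold change was 0.79 (adjusted p = 0.452). Col4a6 was 0.54 with all libraries and 0.30 without it (adjusted p = 0.147). Col13a1, Col24a1 and Col4a6, with main adjusted p from 0.0306 to 0.0476, each passed the threshold in some of the 36 other settings and not in others. Col6a4 did not pass (1.07 with an SE of 11.9). All 7 fibroblast, 8 pericyte and smooth muscle and 5 endothelial markers were also higher in heart and colon, as were all 4 mesothelial markers, the fibroblast markers summing to 437 to 1128 FPKM against 26.6 to 86.6 in brain and cerebellum. Of 4 adipocyte markers 3 were higher (median 7.84), at 24.3 to 144 FPKM summed in colon, 1052 in female heart replicate 3, at most 3.13 in the other hearts and at most 0.377 in brain and cerebellum. All 5 meningeal and all 5 choroid plexus markers were lower, and 2 cartilage and bone markers were higher and 3 lower. The part of these cells in the collagen differences was not tested.

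**Figure D3:**
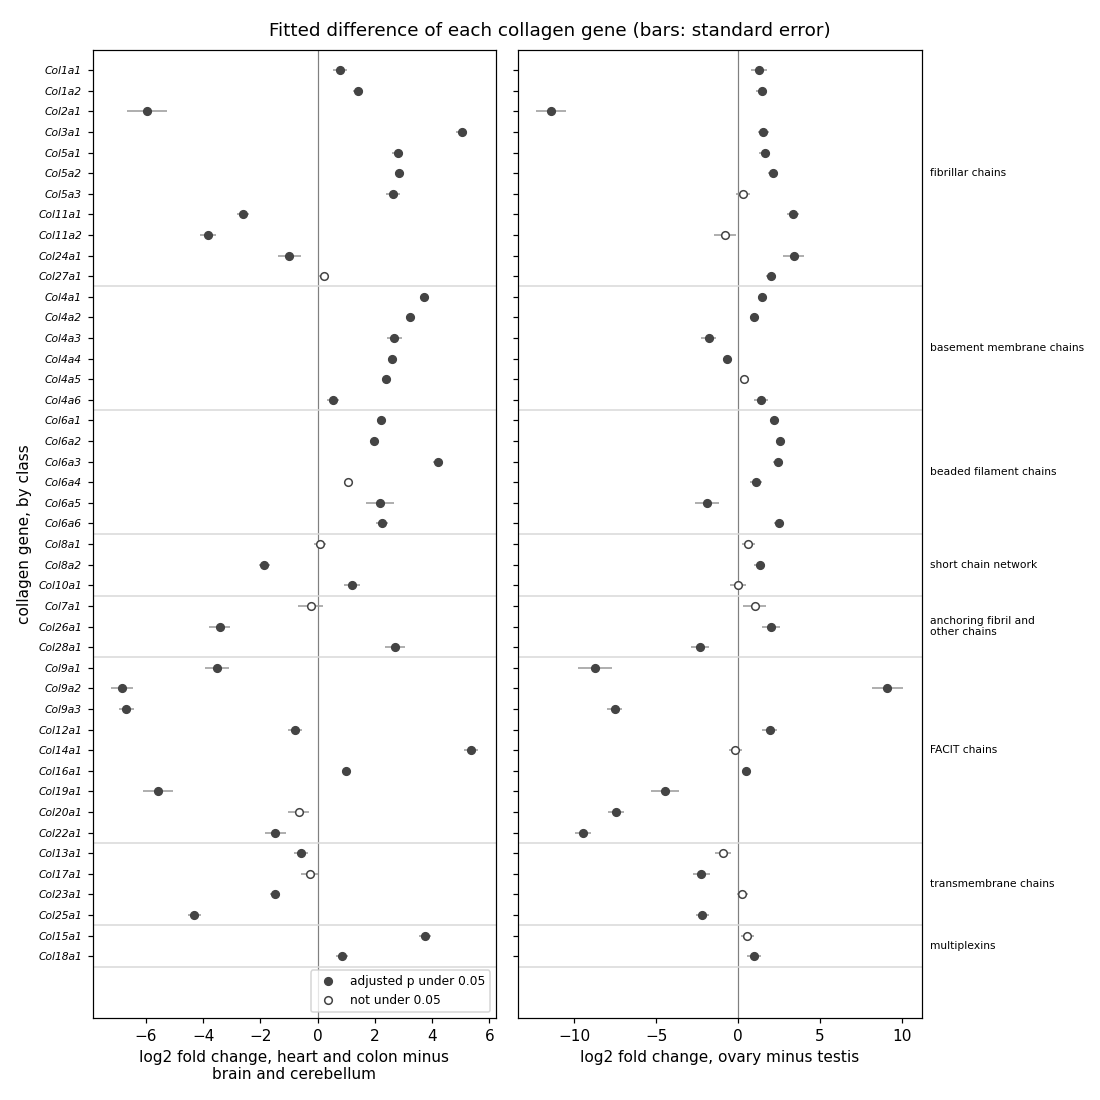
Fitted log2 fold change of each collagen gene (rows, by class) for heart and colon minus brain and cerebellum (left) and ovary minus testis (right), with bars of 1 standard error. Filled points have an adjusted p under 0.05 and open points do not, and Col6a4 in the left panel is drawn without its bar, whose SE of 11.9 exceeds the axis. Basement membrane chains lie right of 0 on the left, and FACIT chains spread to both sides on the right.

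Heart and colon differed from each other mainly in that colon held more. Of the 44 members 6 were higher and 25 lower in heart, beside 25% and 28.9% of all features (53.9% called). The median log2 fold change was -0.86 over members and -0.09 over all features. In 8 members (18.2%) every heart lay below every colon, beside 20.4% of all features, and in 3 (6.82%) above, beside 10.5%. The 6 members higher in heart were Col6a6, Col4a4, Col4a3, Col8a1, Col15a1 and Col11a2. Col11a2 (1.14, adjusted p = 0.0416) lost its call when any one of 7 libraries was left out, among them female heart replicate 3 (0.86, adjusted p = 0.140) and male heart replicate 1 (0.68, adjusted p = 0.370). Col4a3 and Col4a4, whose network is best known from kidney and inner ear, were 1.10, 2.44, 2.83, 2.01 and 1.51 FPKM and 1.88, 4.59, 4.09, 3.82 and 3.27 FPKM in the hearts. In colon they were at most 0.531 and 0.673. The log2 fold changes were 3.07 ± 0.36 and 3.59 ± 0.18 (adjusted p = 4.99e-08 and 7.09e-15), and no heart overlapped with a colon. C430014B12Rik, on the other strand of Col4a3, was 0.758 to 1.33 FPKM in heart and 0.418 to 0.766 in colon, and its part was not tested. Col6a6, a chain that can take the place of Col6a3, was 1.11, 1.92, 3.31, 2.74 and 1.88 FPKM in the hearts and 0.0294 to 0.127 in colon (5.14 ± 0.27), while Col6a4, from the same cluster of genes, was 4.21 to 7.20 FPKM in colon and at 0 counts in 4 of 5 hearts. The antisense gene Gm47575 overlaps Col6a4 and was 1.04 to 3.81 FPKM in colon and 0 in heart, and its part was not tested.

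Col12a1, a FACIT chain of fibril surfaces, was 0.206, 0.505, 2.66, 0.702 and 0.138 FPKM in the hearts and 8.07 to 20.01 (median 11.1) in colon (-3.72 ± 0.40, adjusted p = 1.39e-08), and the log2 fold change was -4.29 without female heart replicate 3 and -4.50 without male heart replicate 1. Col8a2, a short chain of networks in vessel walls and cornea, was 0.230, 0.418, 1.17, 0.261 and 0.0790 FPKM in the hearts and 2.60 to 6.46 in colon (-3.13 ± 0.31). Col19a1 had 1 count in the 5 hearts together and 887 in the colons, a ratio of 1065 with an exact 95% interval of 190.7 to 42129 that covers counting error only. That count was in female heart replicate 3, and without this library Col19a1 was at least 280.1-fold lower in heart against a floor of 3 counts over the group. For these genes no heart reached a colon. Col1a1 (-0.98 ± 0.37, adjusted p = 0.0267), Col1a2 and Col3a1 (-0.95) were also lower in heart, but without male heart replicate 2 the adjusted p of Col1a1 was 0.131 and that of Col1a2 0.0647, and Col1a1 also lost its call without female heart replicate 1 (0.0657) or female colon replicate 3 (0.0612). Without male heart replicate 2, 24 members were called in place of 31, while without female heart replicate 3 the number was 31.

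Cell type markers did not move in one direction with these collagens. Of 7 fibroblast markers 4 were higher and 1 lower in heart than in colon, with summed levels of 445 to 1128 FPKM in heart and 437 to 696 in colon. Of 8 pericyte and smooth muscle markers 7 were lower in heart, at 115.6 to 270.1 FPKM summed against 4814 to 13269, and all 5 endothelial markers were higher, at 71.7 to 146 against 17.9 to 28.5. All 4 mesothelial markers were higher in heart, at 56.7 to 171 FPKM summed against 9.81 to 37.7. All 4 skeletal muscle markers were higher in heart too (median 6.36). Of 4 adipocyte markers 1 was lower in heart, of 5 cartilage and bone markers 2 were higher, of 5 meningeal markers 2 were higher and 1 lower, and of 5 choroid plexus markers 1 was higher and 2 lower. Their part in the collagen differences was not tested.

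Brain held less collagen RNA than cerebellum. Of the 44 members 2 were higher and 18 lower in brain, beside 15.3% and 10.8% of all features (26.1% called), and the median log2 fold change was -0.37 over members and 0 over all features. In 7 members (15.9%) every brain lay below every cerebellum, beside 9.33% of all features, and in 2 (4.55%) above, beside 9.26%. Of 11 fibrillar chains 8 were lower, of 6 basement membrane chains 3, of 3 short chain network chains 2 and of 9 FACIT chains 2, none of these classes had a chain higher, and the classes were not tested against each other. Col9a3 (-2.32 ± 0.23, adjusted p = 1.3e-08) was 1.58 to 5.08 FPKM (median 2.35) in brain and 11.7 to 19.2 (median 15.4) in cerebellum. Col18a1, a multiplexin of basement membranes whose tail is released as endostatin, was 0.610 to 2.07 FPKM (median 1.16) in brain and 4.15 to 9.15 (median 6.40) in cerebellum (-2.43 ± 0.31). Col2a1, the fibrillar chain of cartilage, was 0.00772 to 0.180 FPKM in brain and 0.382 to 1.08 in cerebellum (-3.50 ± 0.45, and -4.20 without female brain replicate 1). In each of these the brains lay below all cerebella, as they did for Col4a4 (0.0807 to 0.253 against 0.272 to 0.547 FPKM). Col25a1 (1.76 ± 0.25, adjusted p = 5.48e-06) and Col6a4 (0.129 to 0.377 against 0 to 0.0753 FPKM) were the 2 members higher in brain.

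All 5 choroid plexus markers were lower in brain too, with a summed level of 24.95 to 1579 FPKM in brain and 1038 to 3926 in cerebellum, and so were 5 of 7 fibroblast markers, at 26.6 to 45.4 FPKM against 57.8 to 86.6. None of 5 meningeal, 5 endothelial or 8 pericyte and smooth muscle markers was called (edgeR), with medians of -0.32, -0.25 and 0.15. Of 5 cartilage and bone markers tested, 2 were lower in brain (Bglap at -2.02 and Ibsp at -2.14) and none higher, the median being -0.71, and the list summed to 1.27 to 3.52 FPKM in brain and 2.02 to 9.85 in cerebellum. Female cerebellum replicate 1 had the highest Col1a1 (122.9 FPKM) and also 6.91 FPKM of the bone gene Bglap, against at most 1.70 in the other cerebella, while Ibsp, another bone gene, was 0.521 there and 0.102 to 1.75 in the others. The part of these cells in the collagen differences was not tested. Col4a3 (adjusted p = 0.0482) and Col9a2 (0.0492) lost their call in 20 of 36 other settings each.

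More of the members were higher than lower in ovary against testis. In ovary 22 of 44 members (50%) were higher and 12 (27.3%) lower, beside 26.5% and 37.8% of all features (64.3% called), and the median was 0.79 over members and -0.15 over all features. In 26 members (59.1%) every ovary lay above every testis, beside 41.4% of all features, and in 11 (25%) below, beside 33%. Since ovary and testis differ in sex as well as organ, both cannot be told apart here. Of 11 fibrillar chains 8 were higher in ovary and 1 lower (Col2a1), of 6 beaded filament chains 5 were higher and 1 lower (Col6a5), and of 9 FACIT chains 3 were higher and 5 lower, and the classes were not tested against each other. Col6a1 and Col6a2 were 154, 160 and 157 FPKM and 113, 115 and 107 FPKM in the ovaries against 19.9, 18.7 and 26.7 FPKM and 11.8, 9.13 and 15.0 FPKM in the testes (2.21 ± 0.25 and 2.58 ± 0.27, adjusted p = 3.09e-08 and 8.68e-09). Col11a1, a minor fibrillar chain that governs fibril width, was 7.65, 4.03 and 5.77 FPKM in the ovaries and 0.317, 0.302 and 0.446 in the testes (3.37 ± 0.37). Col9a2 had 280 counts in the ovaries (0.946, 2.18 and 1.16 FPKM) and none in the testes, which is at least 118.5-fold higher against a floor of 3 counts over the group.

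Among the members lower in ovary than in testis, Col22a1, Col9a3 and Col20a1 had the smallest adjusted p. Col20a1 was 72.2, 68.5 and 68.7 FPKM in the testes and 0.303, 1.04 and 0.437 in the ovaries (-7.45 ± 0.48 for ovary against testis, adjusted p = 8.22e-13, and -8.13 without ovary replicate 2). Col22a1, a FACIT chain known from tissue junctions, was 61.1, 60.9 and 56.1 FPKM in the testes and 0.0884, 0.0213 and 0.246 in the ovaries (-9.48 ± 0.50, adjusted p = 2.31e-14, and -10.76 without ovary replicate 3). For Col20a1 and Col22a1 the 3 testes lay close together and far above every other library, of which the highest reached 1.63 FPKM for Col20a1 and 0.455 for Col22a1. Col2a1 was 7.26, 7.75 and 9.46 FPKM in the testes, with 3351 counts against 1 in the ovaries, a ratio of 2640 (exact 95% interval 473.5 to 104295, counting error only). The 1 count was in ovary replicate 1, without which Col2a1 was at least 656.4-fold lower in ovary against the same floor. Col9a1, which also joins type IX, had 177 counts in the testes and none in the ovaries, at least 46.5-fold lower in ovary against the same floor.

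Col9a3 was 12.7, 17.0 and 13.3 FPKM in the testes and 0.176, 0.128 and 0.0629 in the ovaries (-7.55 ± 0.44, adjusted p = 1.31e-13), and testis was near the cerebellum mean of 15.2. It overlaps Tcfl5, a gene on the other strand, by 235 of its 2829 counted bases. Tcfl5 was 97.2, 103 and 97.6 FPKM in the testes and at most 0.864 in any other library, so part of the testis counts of Col9a3 may belong to it, and that part was not tested. Col9a2, which joins the same molecule as Col9a1 and Col9a3, had no count in any testis. Of 6 cartilage and bone markers the sum was 67.7 to 73.0 FPKM in testis against 1.37 to 3.78 in ovary, 2 of the 5 that could be tested being lower in ovary and 1 higher. Comp, a protein of cartilage and tendon, held nearly all of the testis sum at 67.0 to 72.3 FPKM, while Acan and Matn1, which define cartilage, were at most 0.357 and 0.0176. Of the 7 fibroblast markers 6 were higher in ovary and 1 lower, at 586.5 to 715 FPKM summed against 165 to 256, and all 5 endothelial markers were higher. Of 8 pericyte and smooth muscle markers 6 were higher in ovary and none lower, at 1530 to 3002 FPKM summed against 354 to 410, and of 4 mesothelial markers 3 were higher, at 110 to 209 against 10.5 to 21.3. None of 4 adipocyte or 5 meningeal markers was called (edgeR), and 1 of 5 choroid plexus markers was lower. The part of these cells was not tested.

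A few gonad calls turned on the scaling or the model. For Col4a4 (-0.70 ± 0.22, adjusted p = 0.00666) the log2 fold change was -0.05 with total count scaling (adjusted p = 0.868), and for Col1a1 (1.28 ± 0.49) it was 0.30 with a block for the library codes (adjusted p = 0.622). Col1a1 also lost its call when any one of 4 gonad libraries was left out (adjusted p from 0.0614 to 0.108). Col16a1, Col18a1, Col6a4 and Col6a5 also lost their call in 3 to 9 of 36 other settings.

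Against female heart and colon, more members were higher than lower in ovary. In ovary 18 of 44 members were higher and 4 lower (Col14a1, Col11a2, Col5a3 and Col13a1), beside 22.6% and 17.3% of all features (39.9% called). With total count scaling the numbers were 23 and 1, and without female heart replicate 3 they were 20 and 3. Col11a2 (-1.56) lost its call when any one of 6 libraries was left out, female heart replicate 3 among them (-1.29, adjusted p = 0.103), and was -2.47 without ovary replicate 1. The call of Col13a1 (-1.40) was lost without female heart replicate 1 or ovary replicate 3. The median was 0.70 over members and 0 over all features. In 15 members (34.1%) every ovary lay above every female heart and colon, beside 24.7% of all features, and in no member below, beside 2.67%. Col11a1 was at most 0.0906 FPKM in those 6 libraries, against 4.03 to 7.65 in ovary (5.96 ± 0.32, adjusted p = 3.19e-13). Col4a4 was 9.81, 7.98 and 8.88 FPKM in the ovaries, 1.88, 4.59 and 4.09 in the female hearts and 0.329, 0.276 and 0.307 in the female colons (2.54 ± 0.19). Col6a4 was 15.8, 18.5 and 25.5 FPKM in the ovaries against 4.21, 5.33 and 5.42 in the female colons and 0, 0 and 0.117 in the female hearts (4.98 ± 0.38). Without female heart replicate 3, the only female heart with a count, the value was 7.53. Gm47575, which overlaps Col6a4 by 162 bases, was 9.19 to 10.2 FPKM in ovary, and its part was not tested. Col26a1, a collagen known from gonads, was 5.82, 5.35 and 4.36 FPKM in the ovaries and at most 0.128 in the female hearts and colons (5.74 ± 0.53, and 7.04 without female heart replicate 2). The female colons and hearts lay below the ovaries for all 4. Of the markers, 3 of 7 for fibroblasts were higher and 3 lower in ovary (median -0.13), and 5 of 8 for pericytes and smooth muscle higher and 2 lower (1.11). For endothelium 3 of 5 were higher and 1 lower (0.69), and for mesothelium 3 of 4 higher (1.22). For cartilage and bone 1 of 5 was higher, for choroid plexus 2 of 5 higher and 2 lower. For meninges 2 of 5 and for skeletal muscle 3 of 4 were lower. The part of these cells was not tested.

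Against male heart and colon the share of members called in testis, 61.4%, was near that of all features, 65.3%. In testis 15 of 44 members (34.1%) were higher and 12 (27.3%) lower, beside 40.7% and 24.6%, with a median of -0.14 over members and 0.31 over all features. Every testis lay above every male heart and colon in 11 members (25%), beside 34.6% of all features, and below in 7 (15.9%), beside 16.9%. Col22a1 (8.85 ± 0.43, adjusted p = 1.76e-15), Col20a1 (8.19 ± 0.44), Col9a3 (7.77 ± 0.40) and Col4a4 (2.69 ± 0.20) had the smallest adjusted p among those higher. Without male heart replicate 1, which leaves 1 male heart that is assumed to vary like the other groups, the values of Col22a1 and Col9a3 were 11.28 and 10.19, and without male heart replicate 2 that of Col20a1 was 8.82. Col4a4 was 9.57, 8.39 and 9.69 FPKM in the testes, 3.82 and 3.27 in the male hearts and 0.673, 0.561 and 0.608 in the male colons. Among the 12 lower, Col5a2, a chain that is built into type I fibrils, was 3.67, 2.33 and 4.002 FPKM in the testes against 8.96 to 33.9 in the male hearts and colons (-2.23 ± 0.28, adjusted p = 1.37e-07). Col4a1 was 14.5, 13.5 and 17.8 FPKM in the testes against 26.6 to 52.8 in the male hearts and colons (-1.19 ± 0.23). No testis reached the male hearts or colons in either gene. Col8a1, a short chain of vessel walls, was 1.03, 0.904 and 1.12 FPKM against 2.04 to 6.09 (-1.98 ± 0.38). Col5a1, a partner of Col5a2, was 3.92, 4.05 and 4.49 FPKM against 5.66 to 19.0 (-1.28 ± 0.33, adjusted p = 0.00131). By class 5 FACIT chains were higher and 1 lower in testis, and 2 fibrillar chains were higher and 4 lower. Of the markers, 4 of 7 for fibroblasts, 5 of 8 for pericytes and smooth muscle (1 higher), 3 of 4 for mesothelium and all 5 for endothelium were lower in testis. So were 2 of 5 for meninges and 2 of 4 for skeletal muscle (1 higher). Higher in testis were 3 of 4 for adipocytes, 3 of 5 for cartilage and bone (1 lower) and 3 of 5 for choroid plexus. The part of these cells was not tested.

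**Figure D4:**
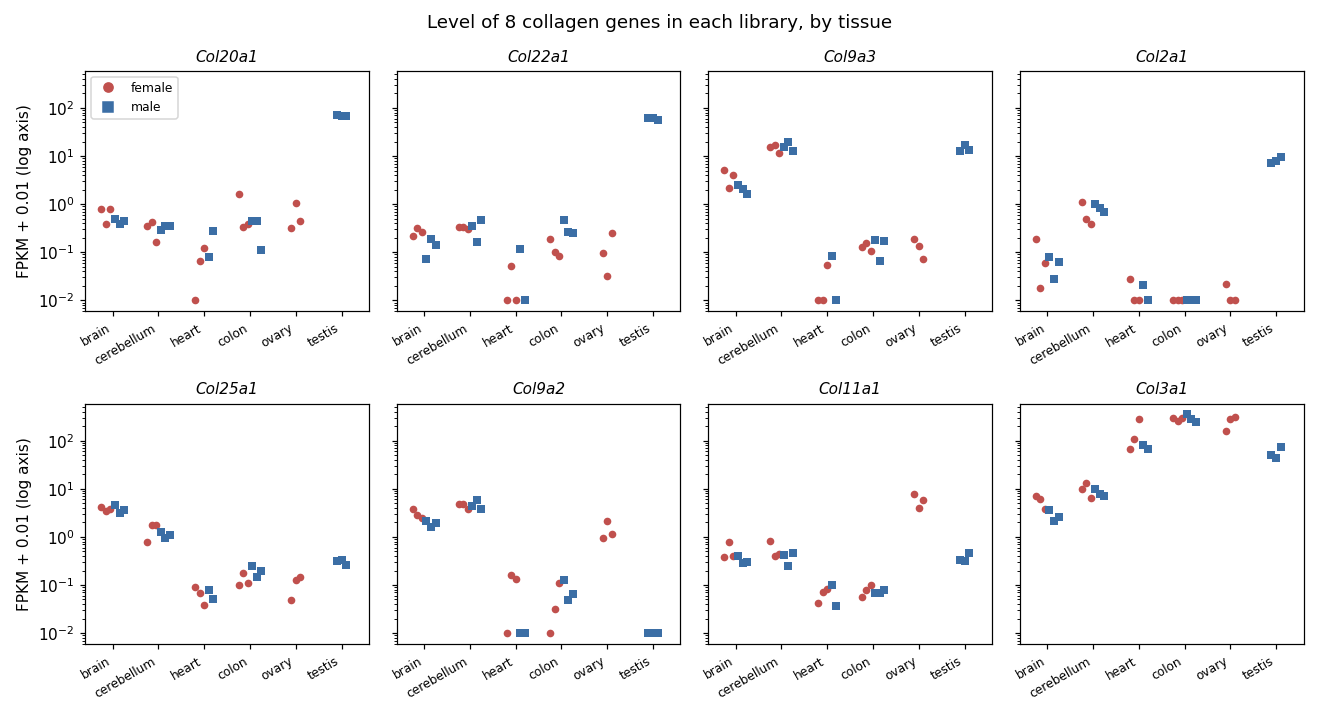
Level of 8 collagen genes in each library by tissue, as FPKM + 0.01 on a log axis (red circles female, blue squares male). The 3 testes lie above 50 FPKM for Col20a1 and Col22a1, Col9a2 is at 0 in all testes, and Col25a1 is highest in brain.

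Ratios between 2 chains were compared within libraries, which takes out the library size. Most pairs were chains of one molecule, while Col1a1 with Col3a1 and Col4a5 with Col4a1 belong to different molecules. Of 27 possible comparisons 24 had at least 10 counts of both chains in every library. None had an adjusted p under 0.05 in the exact permutation test, 4 had an unadjusted p under 0.05, and the smallest adjusted value was 0.05195. The ratio of Col1a1 to Col1a2, the partners in type I collagen, had means of 0.995 in brain, 1.29 in cerebellum, 0.724 in heart, 0.818 in colon, 0.622 in ovary and 0.717 in testis. Col1a1 to Col3a1 was 4.89 in brain and 6.24 in cerebellum but 0.302 in heart and 0.318 in colon, the order of type I and type III being turned around in every one of these libraries. Col6a3 to Col6a1 was 0.286 in heart and 0.606 in colon, and the log2 ratio differed by -1.09 with no overlap (exact permutation p = 0.00217, adjusted 0.05195). Without female heart replicate 1, 3 comparisons passed, among them this one and Col6a1 to Col6a2 in heart against colon, and without female cerebellum replicate 1, 4 passed. Col4a3 to Col4a4 was 0.285 in ovary and 0.614 in testis, with all ovaries below all testes and p = 0.1 as the smallest that the exact test allows.

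**Figure D5:**
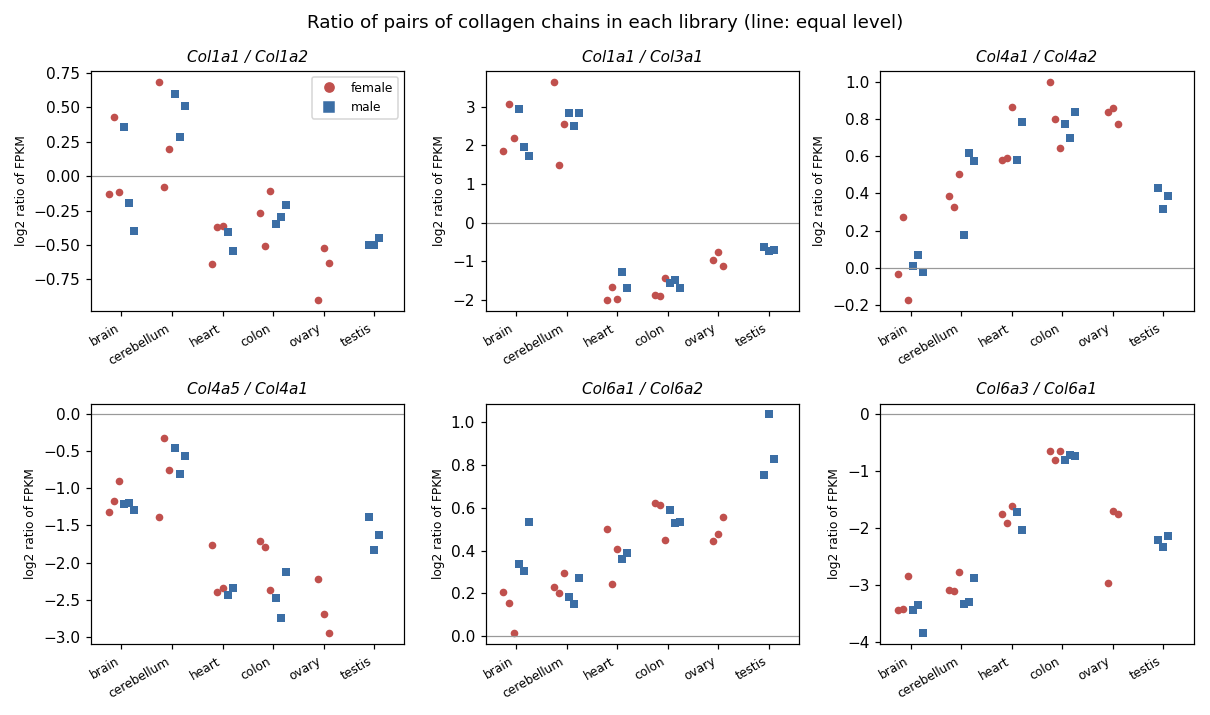
Log2 ratio of the FPKM of 2 collagen chains in each library by tissue, for 6 pairs (red circles female, blue squares male, grey line at equal level), for libraries with at least 10 counts of both. Col1a1 exceeds Col3a1 in every brain and cerebellum and lies below it in every other library, and Col6a3 is closest to Col6a1 in colon.

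Between the sexes no member was called in brain, cerebellum, heart or colon. All features called were 0.0368%, 0.0301%, 0.0635% and 0.324% in these tissues, in edgeR's quasi-likelihood test. At an unadjusted p under 0.05 stood 19 members (43.2%) in brain, 2 (4.55%) in cerebellum, 6 (13.6%) in heart and 2 (4.55%) in colon, beside 4.83%, 3.06%, 9.65% and 8.85% of all features. DESeq2 called 1 member in brain, Col6a2, and none in the other 3 tissues. In brain the median log2 fold change of male against female was -0.65 over members and 0 over all features. Every male brain lay below every female brain in 18 of the 44 members (40.9%), beside 8.59% of all features, and above in none, beside 4.84%. Col6a2 was 11.1, 13.5 and 7.68 FPKM in female brains and 6.00, 4.41 and 4.58 in male brains (-1.04 ± 0.26, adjusted p = 0.651 by edgeR and 0.0305 by DESeq2). Col3a1 was 7.14, 6.23 and 3.77 FPKM in female and 3.58, 2.14 and 2.57 in male brains, again without overlap, whereas Col1a1, at 25.7, 52.3 and 17.1 against 27.5, 8.29 and 8.54 FPKM, overlapped.

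Among the marker lists in male against female brain, the median was -0.63 over 7 fibroblast markers, -0.80 over 5 meningeal markers, -1.36 over 5 choroid plexus markers, -0.64 over 5 endothelial markers, 0.24 over 4 brain defining markers and 0.92 over 4 adipocyte markers. None of these genes was called, and their part was not tested. The test of whether the sex difference varies between the 4 tissues called no member (0.0167% of all features called), and 10 members (22.7%) had an unadjusted p under 0.05, beside 6.77% of all features. DESeq2 called 1, Col4a4 (adjusted p = 0.0122), and edgeR called it without female heart replicate 2 (adjusted p = 0.0457).

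The genes that make, cross-link, bind and degrade collagen were counted from fixed lists, which are to be read beside the shares of all features given above for each comparison. Of 22 genes of synthesis and folding 15 were higher and 3 lower in heart and colon than in brain and cerebellum, where 26.3% of all features were higher and 38.2% lower. The 4 with the smallest adjusted p were P4hb, a subunit of prolyl hydroxylase (log2 fold change 1.79), Serpinh1, the collagen chaperone (2.23), Plod2, a lysyl hydroxylase (2.06), and Crtap, a partner of prolyl hydroxylation (1.52). In heart against colon 14 were higher and 2 lower, among them P4ha2 (2.15), while most members of the collagen family itself were lower. The lists were counted with TMM scaling only. Total count scaling lowered the median over all features in this comparison, as given above, so the number higher may depend on the scaling. In brain against cerebellum 2 were higher and 8 lower, led by Sparc, a collagen-binding protein (-1.75). In ovary against testis 16 were higher and 3 lower, led by Colgalt2, a collagen galactosyltransferase (5.61), and Serpinh1 (3.09). In ovary against heart and colon 16 were higher and 2 lower, and in testis against heart and colon 5 were higher and 12 lower, Colgalt2 differing by -3.62 and Serpinh1 by -1.91. The median over the list was 0.76, 0.51, -0.17, 1.37, 0.83 and -0.54 in these 6 comparisons.

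Of 13 genes of procollagen cleavage and cross-linking, 10 were higher and 3 lower in heart and colon than in brain and cerebellum, with Loxl2, a lysyl oxidase that cross-links type IV networks, at 3.93 and Loxl1 at 2.98. In ovary against testis 8 were higher and 2 lower, and Bmp1, which removes the C-terminal propeptide, differed by 2.26. Of 11 collagen receptors 5 were higher and 5 lower in heart and colon, the latter share being near that of all features, with the integrin chain Itgb1 at 2.56 and Adgrg1, a receptor for type III collagen, at -1.96. Of 9 genes of degradation 5 were higher and 1 lower, with the gelatinase Mmp2 at 3.84, and in ovary against testis 7 were higher and 1 lower, with Mmp2 at 3.31 and its inhibitor family member Timp1 at 3.59. In brain against cerebellum 5 of the 9 were lower and 1, Timp2 (0.86), was higher. Only 1 of the 11 receptors, Adgrg1 (0.58), was called in that comparison.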

How the data were processed

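The authors deposited whole-number read counts per gene for 29 RNA-seq libraries (ribosomal RNA depleted, strand-specific), without normalization, and these counts were used as deposited. Per the labels the tools included HISAT2 and featureCounts 1.6.3 on mm10, and per the study's methods uniquely mapped reads were counted on a PacBio annotation combined with ENSEMBL. The strand setting is not given in the sources used here. The deposited annotation, from Iso-seq of 6 flow cells on GRCm38.p6, gave exons and coordinates only. The members and gene lists were chosen with earlier results of these data known.

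All 29 count columns were used, with 0 other columns of per-sample values. Tests used edgeR 4.0.16 (quasi-likelihood, TMM, filterByExpr by group) in 1 fit over 10 groups of tissue and sex, with Benjamini-Hochberg adjustment over 29911 features, and DESeq2 1.42.0 as an alternative. The SE of an edgeR value is its log2 fold change over the square root of the F statistic. The fit was tested on simulated data. FPKM are counts per 1000000 total counts and kilobase of exon. Shares and chain ratios were tested over libraries by two-sided exact permutation (scipy 1.17.1). Levels in every library are given for the top 3 members of each tissue and, for each comparison, at most 4 members rising and 4 falling, ranked by adjusted p, whose libraries did not overlap; others, such as Col6a5, Col19a1, Col9a1 and Col6a2 in the sexes, were chosen after their values were seen. Total counts were 11742417 to 36194255, and intervals and floors cover counting error only. No 2 libraries of a group were identical or within sampling noise.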

Additional observations from a re-analysis of the deposited data

Results flagged for a closer look

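Of 116 combinations of a member and a tissue with 5 or 6 libraries, 12 had a library whose gap to the nearest other exceeded Dixon's 95% critical value, and chance alone flags about 1 in 20. Of the 12, 7 were female heart replicate 3. There Col3a1 was 285.3 FPKM (other hearts 66.2 to 108.7), Col1a2 92.6 (25.7 to 44.6), Col5a2 27.4 (6.28 to 10.9), Col18a1 8.83 (0.728 to 1.84) and Col12a1 2.66 (0.138 to 0.702). Col6a4 was 0.117 and Col19a1 0.00605 FPKM there, with the other hearts at 0. Female cerebellum replicate 1 was flagged for Col1a1 at 122.9 FPKM (others 37.1 to 68.6) and Col1a2 at 76.4 (33.5 to 45.2). The rest were Col11a1 in female brain replicate 2 at 0.773 FPKM (0.278 to 0.394), Col2a1 in female brain replicate 1 at 0.180 (0.00772 to 0.0685) and Col20a1 in female colon replicate 1 at 1.63 (0.102 to 0.435). Their causes were not tested.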

How the results depend on the processing

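Under the alternatives run (RLE size factors, total count scaling, no filter on low counts, DESeq2, only the groups compared, blocks and each library left out), no member that was called changed direction. Total count scaling was chosen after seeing the data. In brain against cerebellum, the fit on only the groups compared called 4 members higher in place of 2. The number lower in ovary than in heart and colon was 2 with only the groups compared, 1 with total count scaling and 2 to 5 with one library left out, against 4. DESeq2 called 1 member in male against female brain and 1 in the sex by tissue test, which was 0 to 1 with one library left out. The chain ratios called were 0 to 4 with one library left out. Ratios that were not called turned direction with one library left out, as log2 differences: Col4a3/Col4a4 in brain against cerebellum from -0.188 to 0.315, Col6a1/Col6a2 there from -0.0181 to 0.0857, Col4a5/Col4a1 in heart against colon from -0.179 to 0.0439 and Col6a3/Col6a1 in ovary against testis from -0.131 to 0.508. The causes were not tested.

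With one library left out, 35 to 38 members were called in heart and colon against brain and cerebellum, 24 to 32 in heart against colon, 16 to 21 in brain against cerebellum, 30 to 35 in ovary against testis, 17 to 23 in ovary against heart and colon and 26 to 28 in testis against heart and colon. Of these called members 4, 10, 4, 5, 7 and 1 lost their call, and 7, 11, 2, 4, 4 and 7 moved by over 1.5 times in fold, without some one library. Samples shared only a number: none of 56 same-numbered pairs had a correlation of deviations over 0.1, and 10 of 29 libraries correlated best with their own number. The labels also give library codes, whose meaning is not stated. Of 42 pairs of the same sex with the same code digit, 4 had a correlation over 0.1 (highest 0.222), and 10 of 23 libraries correlated best within their digit. With a block for these codes 36, 29, 19, 29, 22 and 28 members were called in the 6 tissue comparisons. With the replicate block, 37, 31, 18, 28, 21 and 27 members were called in the 6 tissue comparisons in that order, 0 in each sex comparison and 0 in the sex by tissue test. Depth limits members at few counts, such as Col7a1, Col9a1 and Col24a1 in heart.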
